A study of Mus musculus with 12 samples.

Results

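Expression of 8 mouse genes of cystic kidney disease and nephronophthisis was described on 12 one-colour Agilent arrays. The genes were Pkd1, Pkd2, Pkhd1, Bicc1, Invs, Glis2, Glis3 and Ift88, out of 34650 gene names on the array. They were chosen by name. Where a gene had more than 1 probe, the one brightest on average across the 12 arrays stood for it, and all 8 genes passed the filter on low signal in every comparison described here. The organoids had been put together from nephron progenitors and ureteric bud, both induced from mouse embryonic stem cells, and from stromal progenitors of E11.5 kidney. Their cells therefore mixed ICR wild type with stem cells of B6 and 129SV background. They were profiled after 7 days of culture (3 arrays) and immediately after reconstruction, here day 0 (3 arrays). A wild-type ICR kidney of E11.5 cultured for 7 days gave 1 array. Fresh wild-type ICR kidneys, taken whole and without ureter, gave 1 array per stage, from E11.5 in steps of 2 days to E17.5, and then at P0 (the day of birth). Culture was on a membrane support in Matrigel and medium with serum. The labels do not say whether organoid replicates were separate cultures, so p-values measure the spread between these arrays, which may be technical.

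Cystic kidney disease and nephronophthisis are inherited disorders in which tubules dilate into cysts or are lost with scarring. Most of the proteins involved sit in the primary cilium, an antenna on tubule cells, at its base, or in the transport system that builds it. Polycystin-1 and polycystin-2, made from Pkd1 and Pkd2, form a receptor and channel complex, and mutation of either gene causes the dominant disease in humans. Fibrocystin, made from Pkhd1, is mutated in the recessive disease and is a membrane protein of collecting duct and other tubules. Bicc1 is an RNA-binding protein, Invs (inversin) scaffolds a segment of the cilium, Glis2 and Glis3 are zinc-finger transcription factors, and Ift88 is a subunit of the intraflagellar transport machinery.

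All levels below are log2 of the background-subtracted signal minus the 75th percentile of the same array, so 0 is the 75th percentile of an array, and levels of different probes are not compared. The 75th percentile of signal was 201 to 206.3 units on day 7 organoid arrays, 126 to 138.3 on day 0 organoid arrays and 211.3 to 286.8 on kidney arrays. The share of probes well above background was 57.29% to 58.16%, 50.58% to 54.22% and 56.1% to 63.25% on the same arrays. Slide 1 held the 6 kidney arrays and day 0 replicates 1 and 2, and slide 2 held day 0 replicate 3 and the 3 day 7 arrays. Markers of kidney epithelium, stroma and nephron progenitors were all well above background on every array. Their summed level is given as signal divided by the 75th percentile, added over the list. For 10 epithelial markers (Cdh1, Epcam, Cdh16 and others) it was 230 to 334 in day 7 organoids, 41.2 to 57.8 in day 0 organoids, 276 in the cultured kidney, and 52.1 at E11.5 and 271 at P0 in fresh kidney.

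The probes had 60 bases and were placed on mouse build mm9 by the deposited files. Exon or UTR positions in that build were not looked up here. The probe of Pkd1 lay at chr17:24733161-24733220 on the plus strand and that of Pkd2 at chr5:104934662-104934721 on the plus strand. The probe of Invs lay at chr4:48444752-48444811, that of Glis2 at chr16:4615736-4615795 and that of Ift88 at chr14:58136714-58136773, all on the plus strand. Pkhd1, Bicc1 and Glis3 each had a pair of probes. The brighter ones lay at chr1:20047861-20047920, chr10:70387850-70387909 and chr19:28337387-28337446 on the minus strand.

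The Pkhd1 and Ift88 promoters are shown because these genes moved in opposite directions in organoid culture. RefSeq (GRCm38.p6) held promoters of 6 of the 8 genes, all but Bicc1 and Glis2, each from 250 bases before to 50 bases after the start site. Both strands were searched for GTTGCC, letters of the X-box known for RFX factors. Capitals mark a match. Pkhd1, at chr1:20618008-20618307 on the minus strand, held no match. Ift88, at chr14:57423821-57424120 on the plus strand, held GTTGCC on the reverse strand, so it reads GGCAAC, 22 bases downstream of the start site.
Pkhd1: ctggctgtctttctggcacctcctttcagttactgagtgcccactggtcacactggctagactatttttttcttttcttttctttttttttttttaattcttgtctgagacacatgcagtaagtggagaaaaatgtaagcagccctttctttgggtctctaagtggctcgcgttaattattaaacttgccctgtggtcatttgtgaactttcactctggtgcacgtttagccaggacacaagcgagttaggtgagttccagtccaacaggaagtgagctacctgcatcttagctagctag
Ift88: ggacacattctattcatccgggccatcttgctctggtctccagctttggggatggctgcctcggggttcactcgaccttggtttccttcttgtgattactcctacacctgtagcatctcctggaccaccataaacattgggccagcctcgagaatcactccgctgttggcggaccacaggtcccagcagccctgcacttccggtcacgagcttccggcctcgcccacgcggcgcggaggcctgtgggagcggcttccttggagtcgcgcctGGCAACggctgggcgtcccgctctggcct
Of 32851 RefSeq mouse promoters of this length, 12.5% held GTTGCC, so a match is common. Pkd1, Pkd2, Invs and Glis3 held none in their windows. A match is a run of letters and not a measured site.

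During 7 days of organoid culture Pkhd1, Bicc1, Glis3, Glis2 and Pkd2 rose, and Ift88 and Invs fell. Pkhd1 was 5.52-fold and Bicc1 4.51-fold higher in day 7 organoids than in day 0 organoids, whereas Ift88 was 1.61-fold and Invs 1.5-fold lower. The groups were compared with limma on the 6 organoid arrays across 21956 genes, with Benjamini-Hochberg adjustment. Of the 8 genes, 5 rose, 2 fell and 1 did not pass the test. Glis3, counted among the risers, was well above background on the day 7 but not the day 0 arrays and so entered the test through the group where it was high. Over all genes tested 24.6% rose and 42% fell, 66.6% in either direction. The median difference was 0.62 over the 8 genes and -0.20 over all genes tested. The groups did not overlap for any of the 8 genes, 6 with day 7 higher and 2 with day 7 lower. Over all genes tested this held for 26.8% higher and 46.4% lower, 73.2% in all.

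The receptor and channel genes moved little. Pkd1 had levels of 2.11, 2.15 and 2.06 in day 7 organoids, against 1.90, 2.01 and 2.04 in day 0 organoids. All 3 day 7 arrays were above all day 0 arrays, by a margin smaller than the spread within day 0. The log2 difference was 0.12 ± 0.08 (SE), with a 95% interval of -0.07 to 0.32 and an adjusted p of 0.223. Pkd2 had levels of 2.79, 2.83 and 2.88 in day 7 organoids, against 2.54, 2.48 and 2.59 in day 0 organoids. The day 7 arrays were again all higher, by a log2 difference of 0.29 ± 0.08 (adjusted p = 0.0144). This call was lost with slide as a block (difference 0.244, adjusted p = 0.0931), within slide 2 (0.0927) and without day 7 replicate 3 (0.0607).

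The fibrocystin gene rose several-fold. Pkhd1 had levels of 1.03, 0.76 and 1.1 in day 7 organoids, against -1.46, -1.48 and -1.57 in day 0 organoids. The day 0 arrays were tightly grouped and lay far below every day 7 array. The log2 difference was 2.46 ± 0.11 (adjusted p = 1.08e-05), and it was 2.53 within slide 2 (adjusted p = 0.00177) and 1.66 with normexp background correction (adjusted p = 4.59e-07). In whole tissue, more cells of a type and more RNA per cell cannot be told apart. Epithelial markers moved in the same comparison, 9 of 10 higher and 0 lower. Of 10 markers of ureteric bud and collecting duct 9 were higher and 1, Calb1, lower (-0.70), and their summed level was 27.5 to 57.3 in day 7 organoids and 10.6 to 13.1 in day 0 organoids. Among those tested, 8 of 9 proximal tubule, 6 of 7 loop and distal tubule and 4 of 6 podocyte markers were higher and 0 lower, and of 7 endothelial markers 6 were higher and 1 lower. Their part in the rise of Pkhd1 and Bicc1 was not tested.

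Bicc1, the RNA-binding protein whose loss gives cystic kidneys in mice, had levels of 6.32, 6.14 and 6.31 in day 7 organoids, against 4.11, 4.02 and 4.13 in day 0 organoids. The groups lay wide apart, with little spread inside either. The log2 difference was 2.17 ± 0.09 (adjusted p = 7.99e-06). A dimmer Bicc1 probe gave 2.18 (adjusted p = 1.88e-05).

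Inversin went the other way. Invs had levels of 1.68, 1.82 and 1.72 in day 7 organoids, against 2.31, 2.28 and 2.38 in day 0 organoids. Every day 7 array was lower than every day 0 array, and the log2 difference was -0.58 ± 0.08 (adjusted p = 0.000938). Ift88, which is needed to build the cilium and whose hypomorphic mouse mutant has polycystic kidneys, had levels of 2.37, 2.41 and 2.45 in day 7 organoids, against 3.04, 3.12 and 3.13 in day 0 organoids. The groups did not overlap here either, and the log2 difference was -0.68 ± 0.08 (adjusted p = 0.000361). Both differences went further below 0 than the median of all genes, -0.20.

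Both GLIS genes rose. Glis2, mutated in a form of human nephronophthisis, had levels of 5.22, 4.97 and 5.13 in day 7 organoids, against 4.15, 4.19 and 4.14 in day 0 organoids. The day 0 arrays were nearly equal and all below day 7, with a log2 difference of 0.95 ± 0.09 (adjusted p = 0.000197), or 1.93-fold. Glis3 had levels of -3.08, -3.36 and -3.33 in day 7 organoids, against -4.27, -5.68 and -5.92 in day 0 organoids. The groups did not overlap, but no day 0 array was well above background for this probe, so only a bound could be given there. Glis3 was at least 2.58-fold higher in day 7 organoids, taking for each day 0 array the higher of its own value and the lowest signal well above background on that array (adjusted p = 0.00484). Normexp background correction ended the call and turned its sign (-0.058, adjusted p = 0.449).

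**Figure D1:**
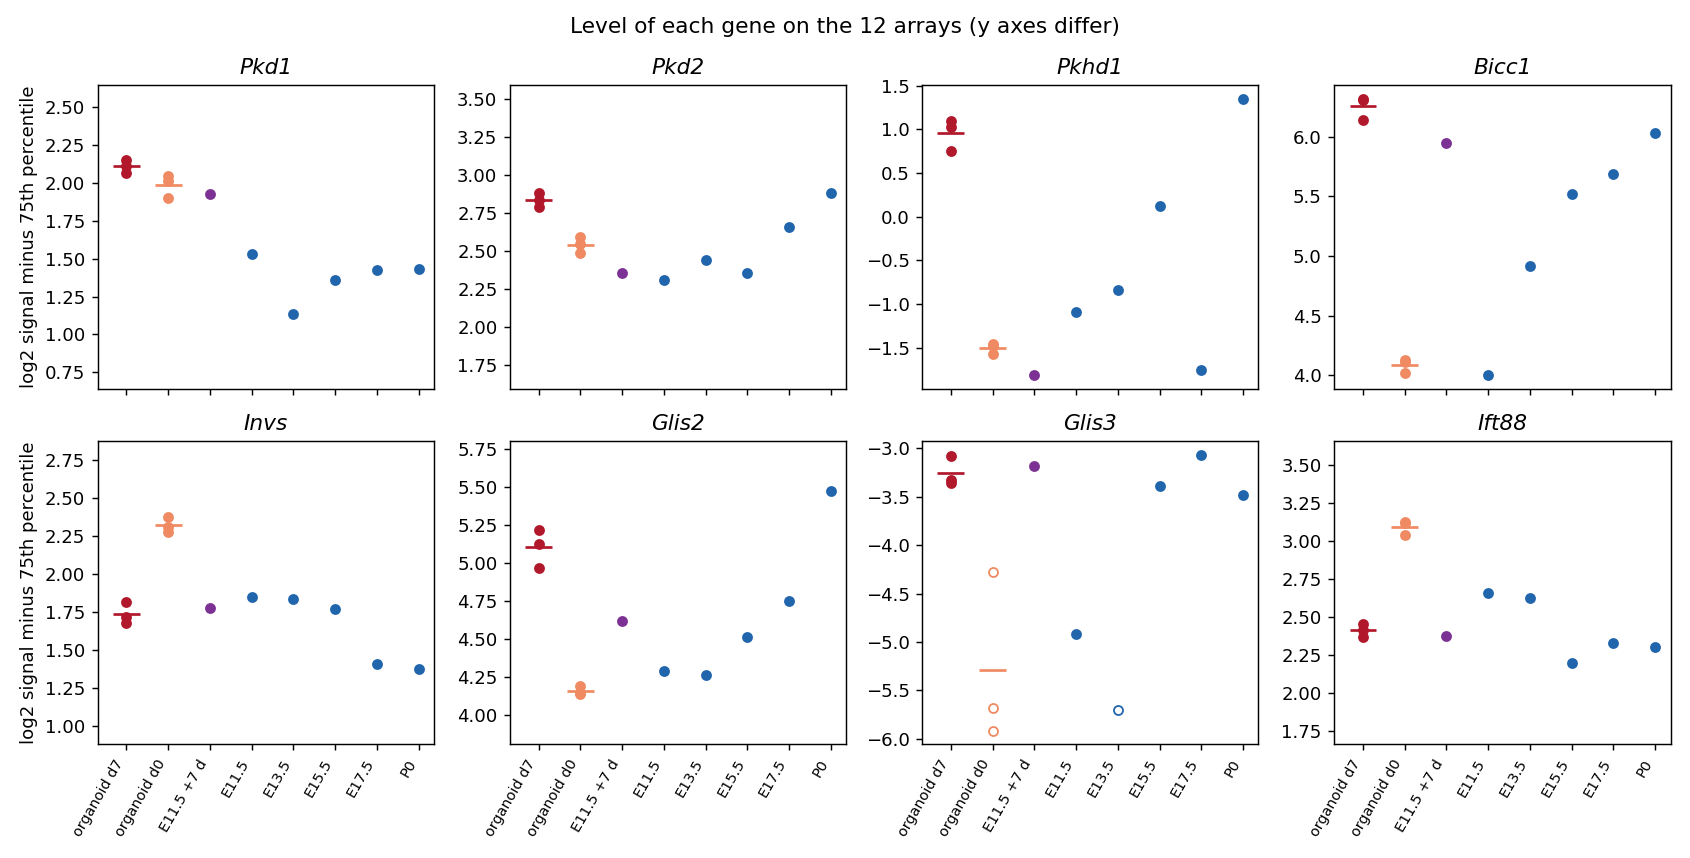
Level of the 8 genes on each of the 12 arrays, in log2 signal minus the array's 75th percentile. Each point is 1 array, bars are means of 3 organoid arrays, open points mark arrays where the probe was not well above background, and the y axes differ between panels. Bicc1 lay between 6.14 and 6.32 in day 7 organoids and between 4.02 and 4.13 in day 0 organoids, while Ift88 lay between 2.37 and 2.45 and between 3.04 and 3.13 in the same groups.

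In the developing kidney Bicc1 rose steadily, and was the only 1 of the 8 genes whose trend over the 5 stages passed the test. Its levels were 4.0 at E11.5, 4.92 at E13.5, 5.52 at E15.5, 5.69 at E17.5 and 6.03 at P0. Each stage was higher than the stage before it, and P0 was 4.08-fold above E11.5. The slope from limma across 25971 genes was 0.48 ± 0.08 log2 units per stage step (adjusted p = 0.024). Over all genes tested 8.74% rose and 9.57% fell, 18.3% in either direction, so 1 riser among 8 is near the background. The call was lost without the E17.5 array (adjusted p = 0.0854) or the P0 array (0.104), with slopes of 0.486 and 0.566. Each stage had 1 array, so no step between stages has a replicate check.

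Glis2 had levels of 4.29 at E11.5, 4.26 at E13.5, 4.52 at E15.5, 4.75 at E17.5 and 5.47 at P0. It stayed level over the first step and was highest at P0, with a slope of 0.29 ± 0.07 that did not pass the test (adjusted p = 0.0576). Glis3 had levels of -4.92, -5.70, -3.39, -3.06 and -3.49 in the same order of stages, and at E13.5 it was not well above background. The 3 later stages were all higher than the 2 earlier ones, with a slope of 0.55 ± 0.22 (adjusted p = 0.136).

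By its brighter probe, Pkhd1 varied by 8.57-fold between its lowest and highest stage, and not in order of age. Its levels were -1.09 at E11.5, -0.84 at E13.5, 0.12 at E15.5, -1.75 at E17.5 and 1.35 at P0. The level climbed to E15.5, was lowest of the 5 at E17.5 and highest at P0, with 1 array per stage. The dimmer Pkhd1 probe had no such dip, at -4.09 at E15.5, -4.07 at E17.5 and -3.70 at P0. The slope of the brighter probe was 0.40 ± 0.30 (adjusted p = 0.378). The 2-fold or greater steps of that probe were -1.87 from E15.5 to E17.5 on the log2 scale and 3.1 from E17.5 to P0. Of all genes 5.04% were 2-fold or more higher and 2.71% lower at E17.5 than at E15.5, and 4.09% higher and 3.87% lower at P0 than at E17.5. At E13.5 against E11.5 none of the 8 genes was past 2-fold (5.3% of all genes higher, 8.94% lower). At E15.5 against E13.5 Glis3 alone was, and at E13.5 it had not been well above background (9.83% higher, 1.74% lower).

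The remaining 4 genes stayed within 1.5-fold over the 5 stages. Pkd2 had levels of 2.30, 2.44, 2.35, 2.65 and 2.88 from E11.5 to P0, highest at the last stage (slope 0.14 ± 0.05, adjusted p = 0.127). Pkd1 had levels of 1.53, 1.14, 1.36, 1.43 and 1.43, lowest at E13.5 and without a trend (slope 0.01 ± 0.06, adjusted p = 0.935). Invs had levels of 1.85, 1.84, 1.77, 1.41 and 1.38 and Ift88 had levels of 2.66, 2.63, 2.20, 2.33 and 2.30. Both were lower at the later stages than at E11.5, with slopes of -0.14 ± 0.05 (adjusted p = 0.117) and -0.10 ± 0.06 (adjusted p = 0.251).

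P0 kidney set against E11.5 kidney, 1 array each and without a test, showed Pkhd1, Bicc1, Glis3 and Glis2 higher by log2 differences of 2.44, 2.03, 1.43 and 1.18. These 4 of 8 genes were past 2-fold, against 14.8% of all genes. Pkd2 differed by 0.57, Pkd1 by -0.10, Ift88 by -0.36 and Invs by -0.47, and 0 of 8 were 2-fold or more lower, against 15.2% of all genes. Epithelial markers had a summed level of 271 at P0 and 52.1 at E11.5, and proximal tubule markers 624 at P0 and 2.02 at E11.5. Their part in these differences was not tested.

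The kidney cultured from E11.5 differed from the fresh E11.5 kidney mainly in Bicc1 and Glis3. Bicc1 was at 5.95 in the cultured kidney and 4.0 in the fresh one, a log2 difference of 1.95. Glis3 was at -3.18 in the cultured kidney and -4.92 in the fresh one, a difference of 1.73. These 2 of 8 genes were 2-fold or more higher, against 11.3% of all genes, and 0 were 2-fold or more lower, against 8.41%. Pkhd1 was at -1.81 in the cultured kidney and -1.09 in the fresh one, and the other genes differed by -0.29 (Ift88) to 0.39 (Pkd1). Against P0 kidney, the cultured kidney had nearly the same level of Bicc1 (-0.08) and a much lower one of Pkhd1 (-3.16). Of the 8 genes 0 were 2-fold or more higher and 1 lower in that pair, against 9.53% and 10.7% of all genes. The gene past 2-fold there was Pkhd1, by its brighter probe. The dimmer Pkhd1 probe was at -3.95 in the cultured kidney, -3.70 at P0 and -4.96 in the fresh E11.5 kidney. None of these pairs has a replicate check.

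Day 0 organoids, compared with the E11.5 kidney that supplied their stroma, had higher scaled levels of Pkd1, Invs and Ift88. None of the 8 genes passed as lower. Before scaling, the signal of these 3 genes was lower on every day 0 array than on the kidney array. It was 474.3 to 557.9 units against 648.5 for Pkd1, 630.2 to 670.3 against 809 for Invs and 1049 to 1203 against 1417 for Ift88. Invs had levels of 2.31, 2.28 and 2.38 in day 0 organoids and 1.85 in E11.5 kidney, a log2 difference of 0.47 ± 0.11 (adjusted p = 0.0299). Pkd1 was higher by 0.45 ± 0.11 (adjusted p = 0.0334) and Ift88 by 0.44 ± 0.11 (adjusted p = 0.0303). For these 3 genes the scaled level on every day 0 array was above that on the kidney array. The fit was limma on 8 arrays in 4 groups across 23314 genes, and it assumes that the lone kidney array varies like organoid replicates. Over all genes 13.6% were higher and 12.8% lower, 26.5% in either direction, against 3 of the 8 genes.

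Bicc1 and Glis2 differed little at the start of culture, by 0.08 ± 0.12 (95% interval -0.22 to 0.38) and -0.13 ± 0.13 (-0.45 to 0.18). Pkd2 differed by 0.23 ± 0.11 (-0.03 to 0.50), Pkhd1 by -0.41 ± 0.16 (-0.80 to -0.02) and Glis3, not well above background at day 0, by -0.37 ± 0.60 (-1.84 to 1.09). Their adjusted p values were 0.162, 0.108 and 0.676. The calls of Pkd1, Invs and Ift88 ended with slide as a block, with adjusted p values of 0.0564, 0.0515 and 0.0508. They also ended within slide 1 (0.25, 0.225 and 0.245) and without day 0 replicate 3 or any 1 of the day 7 arrays, and those of Invs (0.0639) and Ift88 (0.053) without day 0 replicate 1. With normexp, which moved the median of all genes to 0.19, against 0.03 before, the Ift88 call ended (0.195, adjusted p = 0.0848) and Glis2 passed as lower (-0.249, adjusted p = 0.0449). Stromal markers had a summed level of 229 to 241 in day 0 organoids and 158 in E11.5 kidney, and neuronal markers one of 21.1 to 24.1 in day 0 organoids and 9.2 in E11.5 kidney. Of 5 skeletal muscle markers tested 4 were higher (median 3.94). In the other direction 6 of 7 endothelial (median -4.80), 5 of 6 macrophage (-4.21) and 4 of 6 erythroid markers (-4.75) were lower, and the summed erythroid level was 16.7 to 53.9 in day 0 organoids and 765 in E11.5 kidney. The part of these cells in the 3 differences was not tested.

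After 7 days of culture, organoids and the cultured E11.5 kidney differed in 1 of the 8 genes. Pkhd1 had levels of 1.03, 0.76 and 1.1 in day 7 organoids and -1.81 in the cultured kidney. All organoid arrays were far above the kidney array, with a log2 difference of 2.77 ± 0.16, or 6.83-fold (adjusted p = 0.000717, limma on 8 arrays in 4 groups, 22891 genes). Over all genes 3.25% were higher and 3.09% lower, 6.34% in all. With slide as a block the difference was 2.87. No slide held both groups, so that slide term rests on the day 0 organoid arrays alone. With normexp it was 2.03 (adjusted p = 5.32e-05), and with the mean of both probes 1.03 (adjusted p = 0.0407). The result rests on 1 kidney array and on 1 probe, and the dimmer Pkhd1 probe gave -0.72 (adjusted p = 0.147). Epithelial markers had a summed level of 230 to 334 in day 7 organoids and 276 in the cultured kidney, and ureteric and collecting duct markers one of 27.5 to 57.3 and 46.7. In neither list did any of 10 markers pass the test, and with 1 kidney array a marker that did not pass may still differ. Of 6 macrophage markers 2 were lower in organoids (median -2.88), as were 1 neuronal and 1 erythroid marker. In the other direction 1 podocyte and 1 skeletal muscle marker were higher. The part of these cells in the Pkhd1 difference was not tested.

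For the other 7 genes no difference passed the test, and the intervals differed in width. Ift88 differed by 0.04 ± 0.11 (95% interval -0.22 to 0.30), Invs by -0.04 ± 0.11 (-0.32 to 0.24) and Pkd1 by 0.18 ± 0.11 (-0.10 to 0.46). Bicc1, at 6.14 to 6.32 in day 7 organoids and 5.95 in the cultured kidney, differed by 0.31 ± 0.12 (0.00 to 0.61, adjusted p = 0.18). Pkd2 and Glis2 were each higher by 0.48, with adjusted p values of 0.0553 and 0.0815, and both passed the test under 3 alternatives. With normexp they were higher by 0.553 and 0.49 (adjusted p = 0.00481 and 0.0125), where the median of all genes was -0.01, against -0.03 before. With trend and robust moderation the adjusted p values were 0.0174 and 0.0298. With scaling to the median they were 0.0391 and 0.0434, and that scaling moved the median of all genes to 0.16. With slide as a block they were 0.323 and 0.331. Glis3 differed by -0.07 ± 0.60 and its interval, -1.52 to 1.38, leaves more than a 2-fold difference in either direction unresolved.

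**Figure D2:**
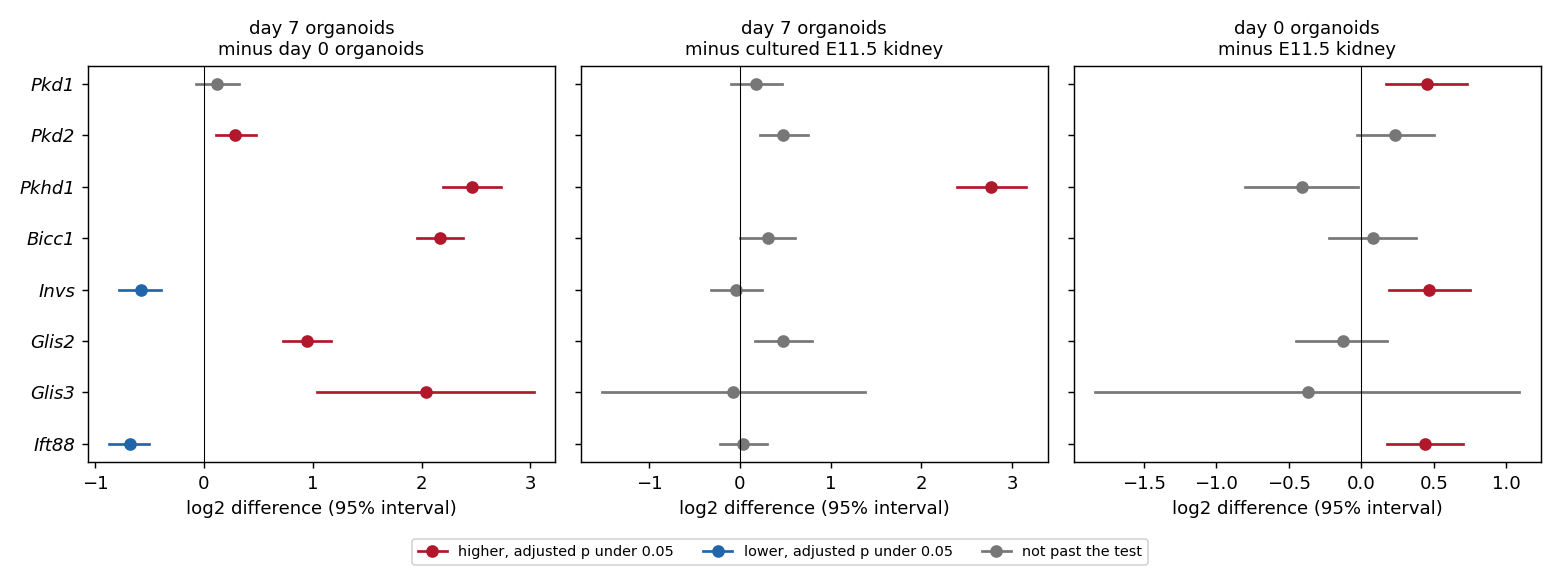
Log2 difference and its 95% interval for each gene in 3 comparisons, with the first-named group minus the second. Red and blue mark differences past the test. In the left panel 5 genes were higher and 2 lower, in the middle panel Pkhd1 alone passed, and in the right panel Pkd1, Invs and Ift88 were higher. The x axes differ.

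The change over 7 days of culture was then compared between organoids and kidney, as the day 7 minus day 0 difference of organoids minus the cultured minus fresh difference of E11.5 kidney. Pkhd1 changed differently, by 3.18 ± 0.23 on the log2 scale (adjusted p = 0.00241), since it rose in organoids and was lower in the cultured than in the fresh kidney. With slide as a block the value was 3.25 (adjusted p = 0.0117), and with normexp 2.08 (adjusted p = 0.000288). The dimmer probe was not well above background at day 0, so its organoid change is only a bound. In kidney that probe went the other way, at -3.95 in the cultured and -4.96 in the fresh kidney. With it the changes differed by 0.94, which did not pass the test. For Bicc1 the changes differed by 0.22 ± 0.18 (95% interval -0.21 to 0.66), the organoid change being 2.17 and the kidney change 1.95. Glis2 (0.62, adjusted p = 0.0826), Invs (-0.51, 0.0966) and Ift88 (-0.40, 0.14) did not pass. Glis2 (0.031) and Invs (0.0443) passed with trend and robust moderation, and Glis2, Invs, Pkd2 and Bicc1 with normexp (adjusted p = 0.00417, 0.0139, 0.00916 and 0.0335), which moved the median of all genes to -0.21, against -0.08 before. Over 24321 genes 6.39% had a higher and 5.92% a lower change in organoids. The lone kidney arrays again stand without replicates.

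Pkhd1, Bicc1 and Glis3 allowed a check between probes of the same gene. Both Bicc1 probes were higher in day 7 than in day 0 organoids and climbed at every stage from E11.5 to P0. The dimmer one, at chr10:70385795-70385854, had levels of 3.59, 3.50 and 3.60 in day 7 organoids, 1.57, 1.18 and 1.41 in day 0 organoids, 3.11 in the cultured kidney and 1.54 to 3.80 from E11.5 to P0. The order of some groups differed, since day 7 organoids lay above P0 with the brighter probe and below it with the dimmer one. The cultured kidney lay above E17.5 with the brighter probe and below E15.5 with the dimmer one. The dimmer Glis3 probe, at chr19:28428766-28432299, had levels of -4.82 to -4.69 in day 7 organoids and -6.78 to -6.03 in day 0 organoids. It was well above background on 7 arrays. Neither Glis3 probe was well above background on any day 0 array, so their day 0 levels are near background. It was highest in the cultured kidney and, among fresh kidneys, at P0.

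The Pkhd1 probes did not follow each other. The dimmer one, at chr1:20596586-20596645 on the minus strand, was well above background on 7 arrays. It had levels of -4.38, -4.96 and -4.67 in day 7 organoids and -6.38, -6.64 and -6.83 in day 0 organoids, so both probes were higher at day 7. It was well above background on no day 0 array and on 2 of 3 day 7 arrays, and was not tested there. In kidney it had -3.95 after culture and -4.96, -7.32, -4.09, -4.07 and -3.70 from E11.5 to P0. At E17.5 and in the cultured kidney it was among its highest, where the brighter probe had its 2 lowest levels. The files name different transcripts for these probes, and why they differ was not tested.

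**Figure D3:**
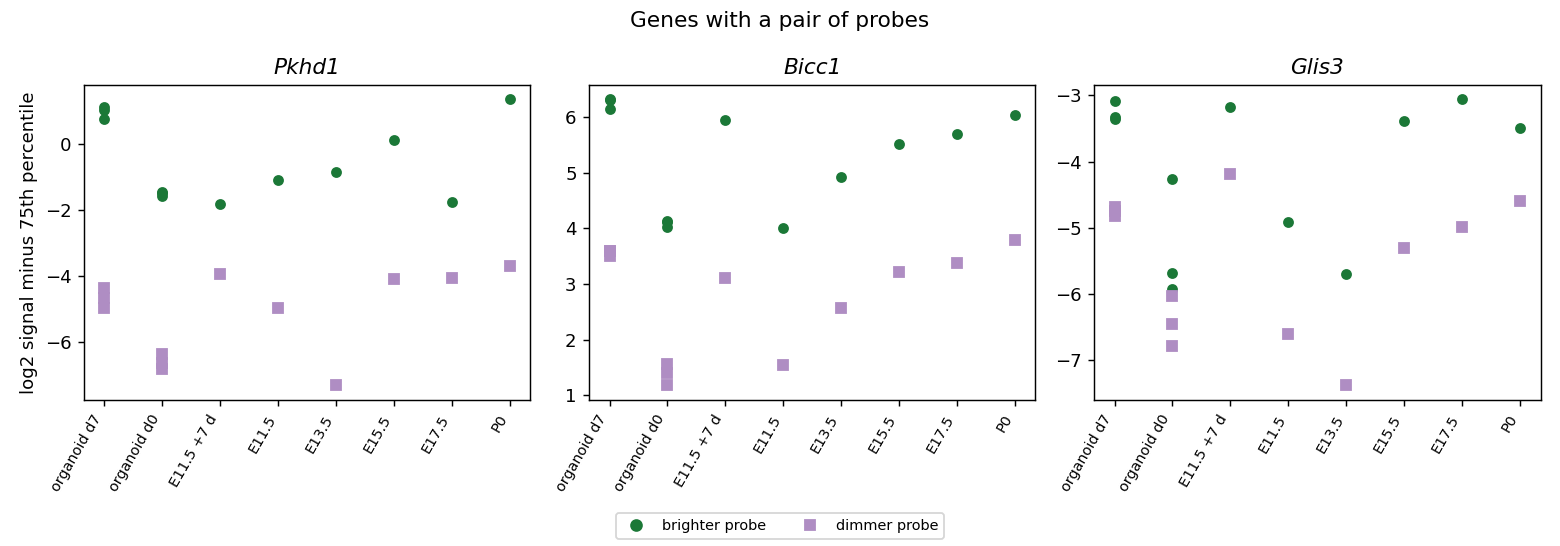
Level of the brighter probe (circles) and the dimmer probe (squares) of Pkhd1, Bicc1 and Glis3 on each array, in log2 signal minus the array's 75th percentile. For Pkhd1 at E17.5 the brighter probe was at -1.75, its lowest fresh kidney level, and the dimmer probe at -4.07, among its highest.

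Across the 12 arrays, Invs and Ift88 had the most similar patterns of the 8 genes (Pearson r = 0.91), followed by Bicc1 and Glis2 (r = 0.88) and Bicc1 and Glis3 (r = 0.84). Ift88 ran opposite to Bicc1 (r = -0.85) and to Glis3 (r = -0.82). Pkd1 was close to unrelated to Bicc1 (r = 0.09), Glis3 (r = 0.10), Glis2 (r = 0.11) and Pkhd1 (r = 0.11). These are descriptions over arrays that share 2 slides and 2 organoid groups, with no test. Glis3 was well above background on 8 of the 12 arrays, so its correlations here and below rest partly on signal near background.

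Among 14672 other genes, those with the most similar pattern to Bicc1 were C1ra (r = 0.997), Dbndd2 and Sgms1. For Ift88 they were Zmat1 (r = 0.984), Znf512b and Nkiras2, and for Invs Gdpd1 (r = 0.985), Exoc6b and Nog. Pkd1 was nearest to Mib2 (r = 0.982), Lpin1 and Fgfbp3, and Pkd2 to Adi1 (r = 0.965), Tmem180 and Emc7. Glis2 was nearest to Dnase1 (r = 0.977), Tns1 and Man2b2, and Glis3 to Arhgef38 (r = 0.953), Hspb2 and Esr1. Pkhd1 had the loosest match of the 8, with Evc (r = 0.872), Pip5k1a and Mrap2.

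The fall of Ift88 and Invs and the rise of Bicc1 and Pkhd1 were set beside 102 other genes of cystic and ciliary disease in 7 lists, all found on the array by name. In day 7 organoids 12 of the 96 tested were higher and 51 lower than in day 0 organoids, with a median difference of -0.30, against -0.20 over all genes. The share that fell can be read beside the 42% of all genes that fell.

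In 3 lists of ciliary machinery more genes fell than rose, as over all genes tested, of which 42% fell and 24.6% rose. Of 21 intraflagellar transport genes, the companions of Ift88, 14 fell, 1 rose and 6 did not pass (median -0.36). Kifap3, the accessory subunit of the kinesin motor of this transport, fell by 0.93 on the log2 scale (adjusted p = 0.000221), and Ttc30b, Ift52 and Ift22 fell by 0.70, 0.53 and 0.52. Of 11 BBSome and chaperonin genes, which serve trafficking of ciliary membrane proteins, 9 fell and 0 rose (median -0.45), with Bbs4 at -1.07 and Bbs9 at -0.94. Of 15 genes of the transition zone at the base of the cilium, 9 fell and 2 rose (median -0.44), among them B9d1 at -0.75 and, upward, Tmem107 at 0.95. Of 4 transcription factors of ciliogenesis that were tested, Rfx3 fell (-0.71) and 3 did not pass. Neuronal markers were lower in the same comparison, 5 of 5 tested (median -2.47), with a summed level of 2.78 to 3.95 in day 7 organoids and 21.1 to 24.1 in day 0 organoids. So were 4 of 4 erythroid markers tested. Of 5 skeletal muscle markers tested 3 were lower and 1, Acta1, higher (2.97). The summed skeletal muscle level was higher, 5.42 to 7.69 in day 7 organoids and 2.88 to 3.2 in day 0 organoids. The part of these cell types in the fall of ciliary genes was not tested.

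Of 20 nephronophthisis genes other than Invs and Glis2, 12 fell, 1 rose and 7 did not pass (median -0.44). Iqcb1, which encodes a partner of the transition zone protein Cep290, had levels of -1.11, -0.70 and -0.89 in day 7 organoids, against 0.83, 0.45 and 0.91 in day 0 organoids. The groups were far apart, with a log2 difference of -1.63 ± 0.16 (adjusted p = 0.000218). The exception was Dcdc2a, a doublecortin-domain gene, with levels of 1.54, 1.29 and 1.36 in day 7 organoids, against -1.82, -2.40 and -2.38 in day 0 organoids. It was 12.1-fold higher (adjusted p = 1.32e-05).

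Of 15 other cystic kidney genes tested, 6 rose, 4 fell and 5 did not pass (median 0.25), and 5 of the risers were past 2-fold. Muc1, an epithelial mucin, was at least 13.6-fold higher in day 7 organoids (adjusted p = 1.37e-05), since no day 0 array was well above background for it and it entered the test through day 7. Cys1, the gene of the cpk mouse, was higher by 3.01 ± 0.17 on the log2 scale and Umod, the uromodulin of the loop of Henle, by 2.14 ± 0.54. Of 10 genes for maturation of polycystins and for polycystic liver disease, 2 rose, 2 fell and 6 did not pass (median 0.01), led by Dzip1l at 1.22 ± 0.09 and Alg9 at 0.45.

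**Figure D4:**
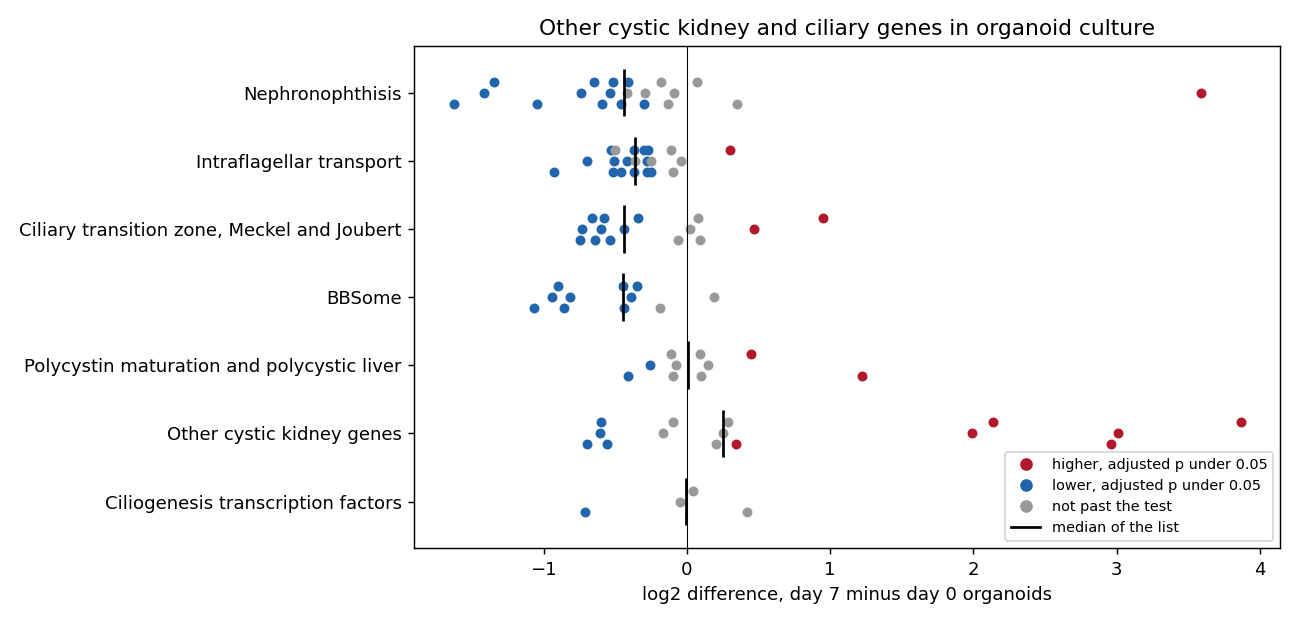
Log2 difference of day 7 minus day 0 organoids for each tested gene of 7 lists. Each point is 1 gene, coloured by the call at an adjusted p of 0.05, and the black bar is the median of the list. The intraflagellar transport, BBSome and transition zone lists had medians between -0.45 and -0.36 and the ciliogenesis transcription factors one of -0.01. Dcdc2a (3.59) lay far to the right, short of Muc1, which was not well above background at day 0.

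In the other comparisons the shares past the test were near or below those of all genes. Between day 7 organoids and the cultured kidney 2 of 96 were higher (Dzip1l by 0.59, Anks3 by 0.73) and 1 lower (Zfp423 by -0.58), against 3.25% and 3.09% of all genes. Between day 0 organoids and E11.5 kidney 13 of 97 were higher, among them Bbs2 by 1.36 and Ttc30b by 1.33, and 3 lower, among them Dcdc2a by -1.89, against 13.6% and 12.8% of all genes. In the change over culture, Dcdc2a (2.11) and Dzip1l (1.14) were higher and Ttc30b (-1.32) and Bbs9 (-0.80) lower in organoids than in kidney, of 98 tested, against 6.39% and 5.92% of all genes.

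Over the kidney stages 8 of 100 rose and 9 fell, near the 8.74% and 9.57% of all genes. None of these calls was kept without the E17.5 array or without the P0 array. The risers were led by Umod, Ren1, Muc1 and Aqp11, by 2.70, 1.65, 1.08 and 0.91 log2 units per stage step. The fallers included Iqcb1 (-0.49), Zfp423 (-0.46), Tctn1 (-0.28) and the motor gene Kifap3 (-0.22). Dcdc2a rose with stage as it did in organoid culture, by 0.65 per step (adjusted p = 0.0396).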

How the data were processed

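RNA of 12 samples was hybridised singly to one-colour (Cy3) Agilent arrays. Per the file headers, the authors deposited Feature Extraction 11.5.1.1 output, whose intensity values were already background-subtracted, while the submitters' processing notes name version 10.7.3.1. The authors also deposited a table of log2 values, which equals the log2 of that intensity up to a constant on each array.

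Levels here are log2 processed intensity less the 75th percentile of that array. Control spots and 108 to 206 outlier spots per array were left out, and no spot was saturated. The arrays had 62976 spots and 55681 probes, and 1 probe per gene name was kept. A gene entered a test if all arrays of 1 of the groups had its probe well above background, or any array in the stage trend. Tests used limma 3.58.1 under R 4.3.3, two-sided, with Benjamini-Hochberg adjustment over all genes and calls at an adjusted p under 0.05, after the scripts were tested on simulated data. The number of arrays limits the precision.

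The 8 genes and all lists were chosen with earlier results of these data known. All 8 genes are named in every comparison, with the 3 genes of most similar pattern for each and up to 4 genes per list with the largest change past the test. Alternatives were normexp background correction (offset 50), the authors' table, scaling to the median, quantile normalization, other probes and filters, trend and robust moderation, replicate and slide blocks, single slides and leaving out each array.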

Additional observations from a re-analysis of the deposited data

Results flagged for a closer look

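Pkhd1 changed differently in organoids and in E11.5 kidney over 7 days of culture, by 3.18 ± 0.23 on the log2 scale (limma, adjusted p = 0.00241). It came up because the difference between the 2 changes itself passed the test. In organoids the change was 2.46, higher at day 7 on 3 of 3 arrays, and in kidney it was -0.72 between 1 cultured and 1 fresh array. The value is that of the brighter Pkhd1 probe. The dimmer one was not well above background on any day 0 array. In kidney the dimmer probe was higher after culture (-3.95) than in the fresh array (-4.96). With it the difference between the changes was 0.94 and did not pass the test.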

How the results depend on the processing

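The count of the 8 genes past the test in day 7 against day 0 organoids was 7, and 6 to 8 under 18 alternatives, 6 to 7 when 1 array was left out. In day 0 organoids against E11.5 kidney the count was 3, and 4 with normexp, with the mean of probes (Pkhd1 lower, -1.035, adjusted p = 0.0152) and with second probes, 0 with slide as a block, 0 within slide 1 and 0 to 3 with 1 array left out. The dimmer Pkhd1 probe in those means was not well above background at day 0. In day 7 organoids against the cultured kidney it was 1, and 3 with normexp, 3 with scaling to the median, 3 with trend and robust moderation and 0 with second probes. For the difference in change over culture it was 1, and 6 with normexp, 3 with trend and robust moderation and 0 with second probes. For the stage trend it was 1, and 3 with normexp, 2 with quantile normalization, 2 with the filter for signal well above background on every array, 2 with trend and robust moderation and 0 to 2 with 1 stage left out. Glis3 changed sign with normexp in organoid culture (-0.058), in day 0 organoids against E11.5 kidney (0.479, adjusted p = 0.00275) and in the difference in change (-0.503, 0.0146), and Pkhd1 changed sign against the cultured kidney with its second probe (-0.72). The cause was not tested. Pkd1 passed in organoid culture with normexp (0.243, adjusted p = 0.0103) and with quantile normalization (0.204, 0.0449). Replicate numbers showed no pairing of the organoids, since same-numbered arrays deviated with correlations of -0.056, -0.22 and -0.049. With 3 arrays per group these values cannot exclude a pairing. With the replicate block 6 of the 8 genes passed in organoid culture, and Pkd2 did not (0.293, adjusted p = 0.0544). Over all genes, 5399 were higher and 9215 lower in day 7 organoids, and 4201 to 5808 and 7770 to 15028 under the alternatives, most lower with no background filter. Genes higher and lower in day 7 organoids against the cultured kidney numbered 744 and 708, and 127 and 96 with slide as a block. In day 0 organoids against E11.5 kidney 3181 and 2987 genes passed, 572 and 1207 within slide 1, and 9896 and 3904 with normexp. The stage trend was called for 2270 rising and 2485 falling genes, and with limma for 0 and 0 without E17.5 or without P0, where 3212 and 4134, and 2928 and 2678, had an unadjusted p under 0.05. The difference in change was called for 1553 and 1441 genes, and for 3250 and 8422 with normexp. Single-slide fits against the cultured kidney were not run, since no slide held both groups. Glis3 and the dimmer Pkhd1 probe are limited by signal near background, and every kidney level by 1 array.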
